A study of Mus musculus with 56 samples.

Results

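Kidneys of day-fed and night-fed mice were compared at ZT4, 4 h after lights on, with every gene of the deposited table. Daytime-restricted feeding (DRF) gave food in the light phase only, and nighttime-restricted feeding (NRF), the control regimen, in the dark phase only. The libraries were chosen by their labels, as the 4 of the DRF ZT4 group and the 4 of the NRF ZT4 group, 8 of 56 in all. The mice of both groups were C57BL/6J females of 9 weeks, housed in groups under a cycle of equal light and dark phases, that took chow freely for 7 days and then were kept for 7 days on DRF or NRF. No genotype, drug or diet other than the hours of feeding set the groups apart. One kidney RNA library per mouse was made by poly(A) selection, so each library stands for 1 animal. The DRF mice had food from lights on and the NRF mice had none since the end of the dark phase. ZT4 therefore sets kidneys in the early part of the meal phase against kidneys in the early part of the daily fast, and time since feeding, clock phase and activity cannot be told apart in this contrast. The other 48 libraries cover the same regimens at ZT0, 8, 12, 16, 20 and 24 and entered the fit that gave the errors.

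Most kidney cells hold a circadian clock, in which CLOCK and BMAL1 (gene Arntl) drive Per and Cry genes whose proteins repress them, with DBP, TEF and HLF as output factors. Meals act on peripheral tissues through insulin, glucocorticoids, body temperature and nutrients. Insulin silences FOXO targets, SREBP factors switch on sterol and fatty acid synthesis, HSF1 drives cytosolic chaperones upon warming or unfolded protein, and the unfolded protein response of the endoplasmic reticulum (ER) drives ER chaperones. In fasting, PPARA and FOXO factors raise fatty acid oxidation genes and autophagy genes.

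Levels are given as rescaled TPM, the share of a gene's transcripts per length in its library, rebuilt from the deposited values and brought to a common scale by the median of ratios. A difference is DRF minus NRF on the log2(rescaled TPM + 1) scale with its standard error from limma, and a fold is that difference turned back from log2, so folds of genes near 1 rescaled TPM are understated. A gene was called higher or lower at a Benjamini-Hochberg adjusted p under 0.05 over all genes tested. P-values measure the spread between mice of 1 experiment. The 8 libraries held between 23.0 M and 25.2 M recovered reads each, and replicates within the 2 groups correlated at 0.969 to 0.995 (Pearson's r across genes, log2 scale). No 2 of them were close to repeats of 1 library.

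Markers of other tissues were uneven among the 8 libraries. Urothelium, the lining of the renal pelvis, differed most. The summed level of 10 urothelium markers was 19.3, 7.13, 7.39 and 723 rescaled TPM in DRF replicates 1 to 4 and 4.77, 18.0, 253 and 851 in NRF replicates 1 to 4. DRF replicate 4 and NRF replicates 3 and 4 were thus far above the other 5, and the high libraries lay in both groups. Upk3a, Upk1b and Psca, which mark urothelium, did not pass the test (adjusted p = 0.67, 0.52 and 0.53), and 0 of the 9 tested markers was called (0 at an unadjusted p under 0.05, limma and voom). Adipose markers summed to 23.0 to 140 in 7 libraries and to 916 in NRF replicate 4. Kidney identity was plain in every library, with cortex markers at 37539 to 103610 and medulla markers (thick ascending limb and collecting duct) at 4718 to 7419. Kap, an androgen-regulated proximal tubule transcript, made up most of the cortex sum and was not called, at 47080 to 54991 in DRF and 31734 to 96846 in NRF. Adrenal markers stayed at 4.40 to 6.68, the 2 recovered pancreas markers at 0 to 0.216 and muscle markers at 2.39 to 4.64. Endothelium markers summed to 430 to 645 and liver-type transcripts to 409 to 792, with overlap of the groups in both. S3 segment markers of the proximal tubule summed to 276 to 313 in DRF and 319 to 545 in NRF. Slc22a7, an organic anion carrier that was lower in DRF, made up 44.8% to 79.4% of this sum, and without it the S3 sum was 137 to 155 in DRF and 113 to 137 in NRF. Slc5a1, a glucose carrier of the same list, was higher in DRF. In bulk kidney, fewer cells of a type and less RNA per cell cannot be told apart.

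**Figure D1:**
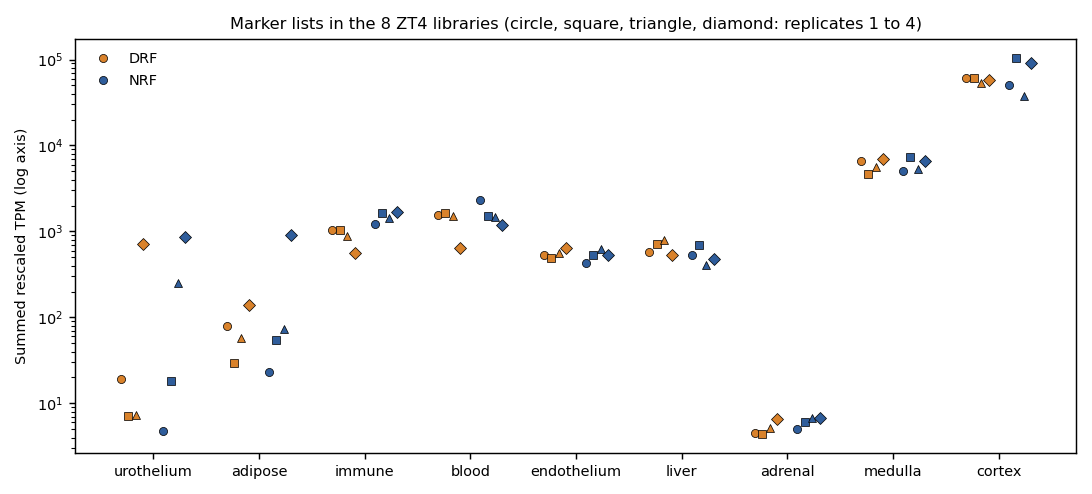
Summed levels of the marker lists in the 8 ZT4 libraries, in rescaled TPM on a log axis, with DRF and NRF side by side and 1 symbol per replicate. DRF replicate 4 (723) and NRF replicates 3 and 4 (253 and 851) stand apart in the urothelium column, and NRF replicate 4 (916) in the adipose column.

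Of 13377 genes tested, 4244 (31.7%) differed between DRF and NRF at ZT4. Higher levels in DRF were found for 2408 genes (18.0% of those tested) and lower levels for 1836 (13.7%). Most changes were small, and 536 genes (4.01%) were called and at least 1.5-fold apart, 234 of them higher and 302 lower in DRF. The 4 DRF and 4 NRF libraries did not overlap for 2863 genes (21.4%), of which 2586 were also called, 1379 higher and 1207 lower. The median difference over all genes was 0.02. The split between directions depended on the scaling. Called genes were 56.7% higher in DRF as reported, 36.0% higher with TPM left unscaled, which called 3710 genes and gave a median difference of -0.06, and 48.2% higher when the deposited values were taken as TPM. Small differences of equal sign across a large list are therefore read below together with the unscaled count. Counts of called list members are read against the shares of all genes, 18.0% higher and 13.7% lower. Where a gene list is said to have 0 members in a direction, 0 also passed an unadjusted p under 0.05 in that direction in the limma fit and with voom, except for 1 lower Nat8 gene and 1 higher vitamin D and phosphate gene.

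**Figure D2:**
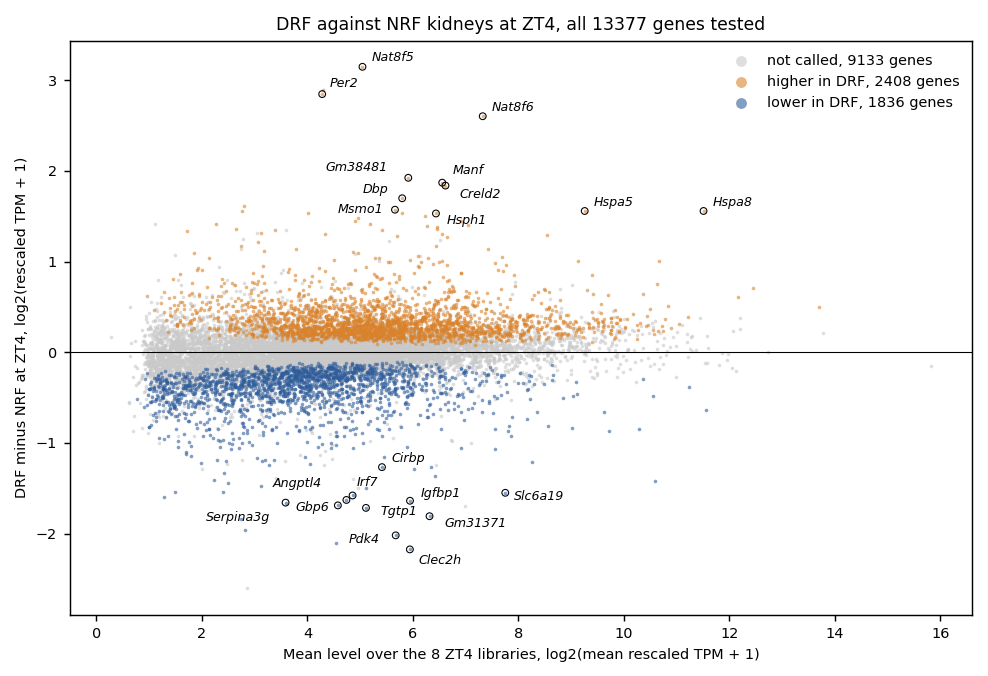
DRF minus NRF at ZT4 for all 13377 genes tested, on the log2(rescaled TPM + 1) scale, against the log2 mean level over the 8 libraries. Orange points are the 2408 called higher and blue points the 1836 called lower. The named genes lie at the edges, with Nat8f5 (3.15) and Per2 (2.85) at the top and Clec2h (-2.17) and Pdk4 (-2.02) at the bottom.

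The large rises joined a clock gene, chaperones and a family of acetyltransferases. Per2, a repressor of the clock, was at 39.7, 34.0, 24.9 and 33.8 rescaled TPM in the 4 DRF kidneys and at 2.70, 3.62, 4.19 and 4.43 in the 4 NRF kidneys. Every DRF kidney was above every NRF kidney by a wide gap, and the fold was 7.19 (difference 2.85 ± 0.17 SE, adjusted p = 1.9e-16, limma). Nat8f5 and Nat8f6 belong to the Nat8 cluster of N-acetyltransferase genes. Nat8f5 was at 43.8 to 71.2 in DRF and 1.26 to 10.8 in NRF (3.15 ± 0.37), and Nat8f6 was at 333, 321, 211 and 229 against 42.2, 66.0, 36.6 and 34.6 (2.60 ± 0.26). Of the 8 Nat8 genes tested 7 were higher and 0 lower, with a median difference of 1.12. Nat8 itself, an enzyme of mercapturic acid formation, was at 171 to 266 in DRF and 69.6 to 168 in NRF, and Nat8f7 at 54.5 to 87.8 against 21.2 to 33.9. The copies of this cluster are much alike, so how reads were shared among them is uncertain.

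The largest falls held genes of the fasted state and interferon-inducible genes. Only genes without overlap of the groups could enter the largest rises and falls, so that trait follows from the choice. Clec2h, a C-type lectin gene, was at 20.9, 26.0, 20.4 and 15.5 in DRF and 102, 71.3, 155 and 73.0 in NRF. It was 4.51-fold lower in DRF (-2.17 ± 0.31, adjusted p = 5.6e-07, limma). Pdk4, the kinase that blocks pyruvate dehydrogenase in fasting, was at 20.9, 13.4, 16.3 and 18.3 in DRF and 49.5, 36.3, 109 and 136 in NRF. All 4 NRF kidneys were higher, and they spread over a wider range than the DRF kidneys (4.05-fold lower in DRF, -2.02 ± 0.32). Igfbp1, an insulin-repressed binding protein of IGFs, was at 25.2 to 31.9 in DRF and 66.5 to 112 in NRF (-1.64 ± 0.23, adjusted p = 3.3e-07). Slc6a19, the main carrier of neutral amino acids in the proximal tubule brush border, was at 102, 136, 104 and 86.2 in DRF and 359, 217, 439 and 273 in NRF (-1.55 ± 0.27, adjusted p = 1.2e-05). Tgtp1 and Gbp6, interferon-inducible GTPases, fell by 1.72 and 1.63 on the log2 scale, and both lost the call without the 3 libraries high in urothelium markers. Serpina3g, a serine protease inhibitor gene, was at 2.35 to 7.07 against 14.3 to 19.0. The uncharacterised loci Gm38481 (1.92 higher) and Gm31371 (fell by 1.81) completed the set, and for these, Serpina3g and Angptl4 the gene length behind the level was found from the spacing of the deposited values and not from the annotation.

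**Figure D3:**
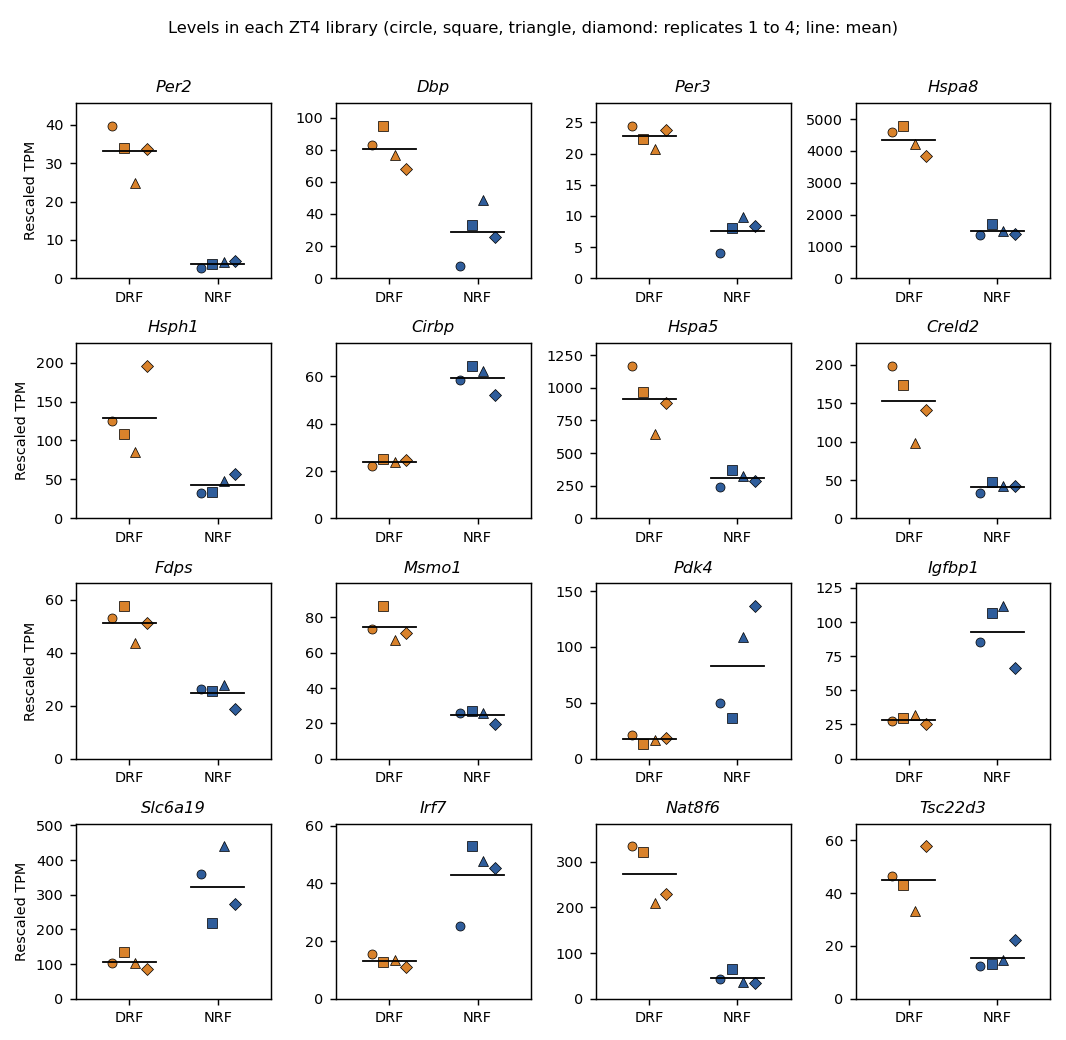
Levels of 16 genes in each of the 8 ZT4 libraries, in rescaled TPM on linear axes from 0, with DRF left, NRF right, 1 symbol per replicate and a line at the mean of 4. Hspa8 sits at 3833 to 4785 in DRF and 1344 to 1696 in NRF, Fdps at 43.7 to 57.5 and 18.6 to 28.0, and Pdk4 at 13.4 to 20.9 and 36.3 to 136.

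Clock genes differed in both directions. Of 19 genes of the clock and its output factors, 11 were higher in DRF at ZT4 and 3 were lower, with a median difference of 0.43 against 0.02 over all genes. With TPM left unscaled 8 were higher and 3 lower. Dbp, an output factor that BMAL1 drives, was at 83.1, 94.8, 76.4 and 67.8 in DRF and 7.74, 32.9, 48.7 and 25.4 in NRF. The DRF values were close to each other, the NRF values spread widely, and the groups did not overlap (3.24-fold, 1.70 ± 0.33, adjusted p = 7.5e-05). Per3 was at 20.8 to 24.4 against 4.07 to 9.75 (1.53 ± 0.20). Tef, a paralog of Dbp, was at 121 to 136 against 63.2 to 93.9 (0.66 ± 0.13). Arntl, the gene of BMAL1, was at 6.01, 4.99, 6.10 and 6.93 in DRF and 13.8, 9.50, 7.73 and 7.80 in NRF. It was lower in DRF (-0.58 ± 0.17, adjusted p = 0.0067), but the call was lost in both fits of the 8 libraries alone, without NRF replicate 1 and on the deposited values. Nr1d1, the gene of the repressor REV-ERBα, was at 86.8 to 131 in DRF and 113 to 178 in NRF (adjusted p = 0.18). Per1 was at 9.66 to 15.1 in DRF and 5.26 to 20.6 in NRF (adjusted p = 0.24), with the highest value in NRF replicate 4. Among members outside the naming rule and picked here after their values were seen, the repressor Cry1 was 1.36 higher and Npas2, a paralog of Clock, fell by 1.48, both on the log2 scale. Among the clock genes named here, Per2, Per3, Cry1, Dbp and Tef were higher, Arntl and Npas2 were lower, and Nr1d1 and Per1 were not called. Other members of the list are not named and Cry1 and Npas2 were picked by value, so a split by role was not tested.

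Heat shock genes were mostly higher. The 26 members are mainly cytosolic chaperones and co-chaperones with the mitochondrial pair Hspd1 and Hspe1 and the factors Hsf1 and Hsf2. No overlap of the groups, with DRF above, was found for 18 members, against 21.4% of all genes in either direction. In the test 22 were higher in DRF and 0 lower, with a median difference of 0.72. Without rescaling 21 were higher. Hspa8, the constitutive HSC70 chaperone, was at 4594, 4785, 4204 and 3833 rescaled TPM in DRF and 1344, 1696, 1475 and 1402 in NRF. The lowest DRF kidney was above the highest NRF kidney at this high level (2.94-fold, 1.56 ± 0.14, adjusted p = 8.9e-12). Hsph1, an HSP110 nucleotide exchange factor, was at 125, 109, 84.6 and 195 against 32.8, 34.2, 47.7 and 56.9 (1.53 ± 0.27). Chordc1, an HSP90 co-chaperone, was at 37.9 to 48.3 against 13.6 to 16.3, with little spread in either group (1.45 ± 0.10, adjusted p = 2.0e-15). Hsp90aa1, the inducible HSP90, was at 599 to 848 against 341 to 417 (1.01 ± 0.11). Hspa1b, an inducible HSP70, was at 114, 75.1, 50.6 and 195 against 16.8, 20.97, 43.1 and 78.7. Its groups overlapped, the call (adjusted p = 0.020) was lost without DRF replicate 1 or 4 or NRF replicate 1 or 2, and its near-identical copy Hspa1a makes the split of reads uncertain. The 4 members not called were Hspa4l, Cryab, Hspb8 and Hsf2, with differences of 0.50, 0.44, 0.17 and 0.07.

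The cold-inducible RNA-binding proteins moved apart. Cirbp, whose transcript falls as cells warm, was at 22.2, 25.3, 23.8 and 24.8 in DRF and 58.3, 64.3, 62.2 and 52.2 in NRF. Both groups were tight and separate (2.41-fold lower in DRF, -1.27 ± 0.14, adjusted p = 1.2e-09). Rbm3, its close relative, was at 96.9, 78.3, 91.8 and 77.6 in DRF and 54.7, 65.7, 69.9 and 59.0 in NRF. It was higher in DRF (1.38-fold, 0.46 ± 0.10, adjusted p = 4.7e-04), opposite to Cirbp.

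Promoters are shown for Hsph1, Hspa1b and Chordc1, which were picked among the risen heat shock genes that held a short motif. In RefSeq windows of GRCm38.p6, from 250 bases before to 50 after the start site, GAANNTTC, the paired unit of the heat shock element (its own reverse complement, so both strands are covered), lay in 12 of the 21 heat shock members with a window (57.1%). It lay in 9.04% of the 27025 genes with a window. Among the 18 risen members with a window 11 held it. The sequences below run 5′ to 3′ on the gene's strand with the motif in capitals. Hsph1 lies at chr5:149636287-149636586 on the minus strand, Hspa1b at chr17:34959189-34959488 on the minus strand and Chordc1 at chr9:18292017-18292316 on the plus strand.
Hsph1: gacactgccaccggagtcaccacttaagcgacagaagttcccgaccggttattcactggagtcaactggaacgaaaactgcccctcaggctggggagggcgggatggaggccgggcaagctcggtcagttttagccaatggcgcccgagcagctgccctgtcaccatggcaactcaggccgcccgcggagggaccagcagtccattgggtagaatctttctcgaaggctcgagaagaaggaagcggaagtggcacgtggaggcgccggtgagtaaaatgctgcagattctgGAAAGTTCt
Hspa1b: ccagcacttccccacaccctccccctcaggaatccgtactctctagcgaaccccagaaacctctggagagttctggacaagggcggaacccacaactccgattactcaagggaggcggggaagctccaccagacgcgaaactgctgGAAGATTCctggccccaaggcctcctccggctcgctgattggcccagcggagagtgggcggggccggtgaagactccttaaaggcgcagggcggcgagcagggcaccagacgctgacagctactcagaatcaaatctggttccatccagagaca
Chordc1: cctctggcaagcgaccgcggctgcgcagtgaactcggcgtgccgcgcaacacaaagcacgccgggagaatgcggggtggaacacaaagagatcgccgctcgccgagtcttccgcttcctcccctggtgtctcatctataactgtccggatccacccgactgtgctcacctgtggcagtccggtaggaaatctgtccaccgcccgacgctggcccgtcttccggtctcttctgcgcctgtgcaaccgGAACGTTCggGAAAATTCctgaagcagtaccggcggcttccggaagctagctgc
Chordc1 holds 2 copies next to each other at the start site. The motif alone did not go with a rise over all genes, since 18.8% of the tested genes that held it were higher, close to the 18.0% of all, with a median difference of 0.01. A match is a description of these letters and not a binding site.

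ER chaperones and genes of the unfolded protein response rose almost without exception. Of 25 tested members 21 had no overlap of the groups, with DRF above, against 21.4% of all genes in either direction. In the test 24 were higher in DRF and 0 lower, with a median difference of 0.58. The count was 24 without any 1 of the 8 libraries and 22 without rescaling, and the single member not called was Atf6 (0.09), the gene of an ER stress sensor. Hspa5, the ER chaperone BiP, was at 1165, 971, 642 and 882 in DRF and 242, 369.8, 328 and 288 in NRF. The DRF kidneys spread widely but all lay above NRF (2.94-fold, 1.56 ± 0.15, adjusted p = 7.3e-11). Creld2, a secreted ER protein induced by unfolded protein, was at 198, 174, 98.8 and 141 against 33.1, 47.7, 41.9 and 41.9 (1.84 ± 0.15). Manf, an ER-resident factor secreted upon calcium loss, was at 202, 162, 95.0 and 131 against 34.7, 49.98, 34.4 and 35.5 (1.87 ± 0.18). Sdf2l1, a partner of BiP, was at 48.3 to 120.5 against 21.8 to 33.9 (1.53 ± 0.20). In all 4 genes DRF replicate 1 was highest and DRF replicate 3 lowest of the DRF kidneys.

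The ER stress element, CCAAT and CCACG with 9 bases between them, was searched on both strands of the same windows. It lay in 9 of the 21 ER members with a window (42.9%) and in 37 of all 27025 genes (0.137%). Of the genes tested 20 held it. All 21 ER members with a window were higher, with or without the element, so the 9 that held it could not stand out. Of the 11 genes outside the list that held it, 3 were higher. Creld2 (chr15:88819396-88819695), Hspa5 (chr2:34771840-34772139) and Syvn1 (chr19:6046326-6046625), the gene of an ER ubiquitin ligase, all on the plus strand, show it in capitals. Creld2 carries it in reverse. These genes were picked among the risen members that held the element.
Creld2: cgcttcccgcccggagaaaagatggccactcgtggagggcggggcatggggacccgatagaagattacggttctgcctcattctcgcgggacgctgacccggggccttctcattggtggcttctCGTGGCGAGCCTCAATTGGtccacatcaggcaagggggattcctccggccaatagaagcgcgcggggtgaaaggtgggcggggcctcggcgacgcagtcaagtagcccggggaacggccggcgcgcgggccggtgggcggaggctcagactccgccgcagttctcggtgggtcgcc
Hspa5: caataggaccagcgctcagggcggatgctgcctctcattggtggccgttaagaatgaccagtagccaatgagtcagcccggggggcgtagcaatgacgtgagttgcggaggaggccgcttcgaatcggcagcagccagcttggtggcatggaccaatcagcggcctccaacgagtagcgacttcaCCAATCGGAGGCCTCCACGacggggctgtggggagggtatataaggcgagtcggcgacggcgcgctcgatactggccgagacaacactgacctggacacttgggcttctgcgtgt
Syvn1: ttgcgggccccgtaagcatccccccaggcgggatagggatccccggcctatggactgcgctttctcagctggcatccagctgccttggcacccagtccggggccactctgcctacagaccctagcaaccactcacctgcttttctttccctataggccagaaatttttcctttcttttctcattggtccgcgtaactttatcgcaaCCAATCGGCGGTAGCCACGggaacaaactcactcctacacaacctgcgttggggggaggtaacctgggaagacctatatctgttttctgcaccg
For comparison, the E-box CACGTG lay in 5 of 16 clock members with a window against 8.09% of all genes, and the sterol element TCACNCCAC in 1 of 16 cholesterol synthesis members against 1.44% of all genes.

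Most genes of the cholesterol list were higher in DRF. Of 24 members 19 were called higher and 0 lower, with a median difference of 0.61. Without rescaling 16 were higher, and leaving out 1 library gave 15 to 19. Msmo1, a sterol demethylation enzyme, was at 73.5, 86.3, 67.4 and 71.3 in DRF and 26.1, 26.8, 25.8 and 19.4 in NRF. The groups were far apart (2.97-fold, 1.57 ± 0.13, adjusted p = 1.3e-12). Fdps, the farnesyl diphosphate synthase, was at 43.7 to 57.5 against 18.6 to 28.0 (1.04 ± 0.12). Srebf2, the gene of the sterol factor SREBP2, and the sterol enzymes Cyp51 and Sc5d did not pass the test, at 0.04 to 0.24.

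Of 16 fatty acid synthesis genes 4 were higher (25%, against 18.0% of all genes) and 0 lower, with a median difference of 0.26. Srebf1, the gene of the lipogenic factor SREBP1, was at 57.3, 59.6, 60.7 and 62.1 in DRF and 29.9, 37.7, 25.7 and 26.0 in NRF (1.0 ± 0.15, adjusted p = 6.9e-07). Mid1ip1, an activator of acetyl-CoA carboxylase, was at 79.7 to 133 against 36.3 to 57.9. Scd2, a desaturase, was at 129.7 to 220.2 against 91.4 to 109, and Elovl5, an elongase, at 103 to 112 against 81.2 to 95.6. Scd2 and Elovl5 lost the call without the 3 libraries high in urothelium markers. The core enzymes Fasn, Acaca, Acly and Scd1 were not called, at 0.71, 0.38, 0.25 and 0.09.

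Genes of the fasted state were lower in DRF, in part. Among 29 PPARA targets and fatty acid oxidation genes 7 were lower (24.1%, against 13.7% of all genes) and 2 higher (6.9%, against 18.0%). Their median difference was -0.12. Cpt1a, the gatekeeper of mitochondrial fatty acid import, was at 251, 274, 248 and 234 in DRF and 426, 324, 424 and 431 in NRF. All NRF kidneys were higher (1.58-fold lower in DRF, -0.66 ± 0.09, adjusted p = 3.3e-07). Angptl4, an inhibitor of lipoprotein lipase, was at 6.61 to 10.2 in DRF and at 12.8, 12.2, 48.3 and 77.3 in NRF. The 2 high NRF values came from NRF replicates 3 and 4, the libraries also high in urothelium markers, and the call was lost without the 3 such libraries. Cyp4a14, a PPARA-driven omega-hydroxylase, went the other way, at 1786 to 2497 in DRF and 948 to 1421 in NRF (1.0 ± 0.18). Without the 3 libraries 4 members were higher and 4 lower, with a median of -0.001. With all libraries and the urothelium score as a covariate 2 were higher and 8 lower, with a median of -0.12. The direction of this list as a whole thus depended on whether the 3 libraries were in the fit.

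Several insulin and FOXO targets were lower. Of 17 members 8 were lower (47.1%, against 13.7% of all genes) and 1 higher (5.88%, against 18.0%), with a median difference of -0.18. With TPM left unscaled 8 were lower. Depp1, a FOXO target, was at 4.09, 4.79, 4.93 and 23.1 in DRF and 20.2, 31.8, 53.6 and 36.8 in NRF. DRF replicate 4 overlapped NRF, and the other 3 DRF kidneys were far below it (-2.10 ± 0.47). Txnip, an inhibitor of thioredoxin and of glucose uptake, was at 349.7 to 398 against 579 to 822 (-0.84 ± 0.20). Trim63, a ubiquitin ligase, was the member higher in DRF, at 10.6 to 14.2 against 6.27 to 13.3, with overlap and an adjusted p of 0.028 that was lost without 5 of the 8 single libraries. Txnip lost its call without the 3 libraries high in urothelium markers.

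Autophagy genes differed in both directions. Of 30 members 9 were higher (30%, against 18.0% of all genes) and 9 lower (30%, against 13.7%), with a median difference of -0.05. Without rescaling 4 were higher and 10 lower. The higher count was 5 without DRF replicate 1 and 6 without NRF replicate 3 or 4, and it was 3 both in the fit of the 8 libraries alone and without the 3 libraries high in urothelium markers, where 6 and 5 were lower. The lower count was 9 without any 1 of the 8 libraries. Wipi1, a phosphoinositide effector of early autophagosomes, was at 11.9, 10.05, 13.5 and 11.9 in DRF and 24.4, 24.2, 24.4 and 25.9 in NRF. The groups were tight and separate (2.01-fold lower in DRF, -1.01 ± 0.09, adjusted p = 2.5e-12). Gabarapl1, an ATG8 protein, was at 773 to 966 against 1425 to 1708 (-0.84 ± 0.11). Ulk1 and Atg13, members of the initiating kinase complex, fell by 0.52 and 0.45.

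Gluconeogenesis genes were called about as often as all genes. Of 10 members 2 were higher (20%, against 18.0% of all genes) and 1 lower (10%, against 13.7%), with a median of 0.12. In the fit of the 8 libraries alone 0 were called higher, with 3 at an unadjusted p under 0.05 (limma). Without the 3 libraries high in urothelium markers 0 were called higher. Pck1, the gene of PEPCK, was at 6051, 7638, 7419 and 5360.1 in DRF and 7145, 5453, 1566 and 4239.7 in NRF. The groups overlapped, NRF replicate 3 was lowest, and the call (adjusted p = 0.017) was lost without DRF replicate 2 or 3 or NRF replicate 3. Slc16a1, a monocarboxylate carrier, was at 31.6 to 43.1 in DRF and 48.0 to 91.9 in NRF (-0.64 ± 0.17), and its call was lost in both fits of the 8 libraries alone.

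**Figure D4:**
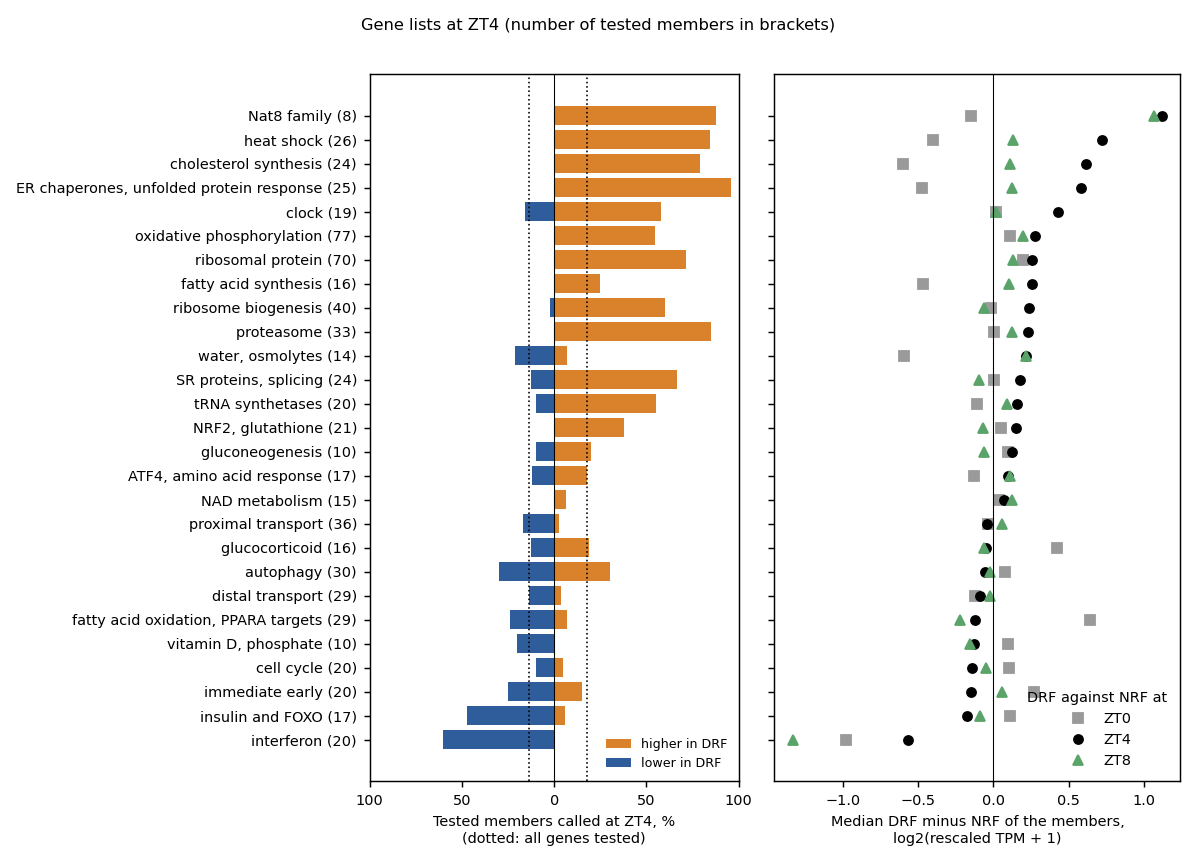
Left, share of the tested members of each gene list called higher (right bars) or lower (left bars) in DRF at ZT4, with the shares of all genes as dotted lines (18.0% and 13.7%). Right, median difference of the members at ZT0, ZT4 and ZT8. The ER, heat shock and cholesterol lists lie to the right at ZT4 (0.58, 0.72 and 0.61) and to the left at ZT0, and the interferon list lies to the left at all 3 times.

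Genes for making ribosomes were higher. Of 40 ribosome biogenesis genes 24 were higher and 1 lower, with a median difference of 0.24, and 16 were higher without rescaling or in the fit of the 8 libraries alone. Bysl, a factor of small subunit assembly, was at 22.4, 21.6, 21.1 and 18.5 in DRF and 11.5, 12.46, 9.92 and 11.2 in NRF (1.78-fold, 0.84 ± 0.08, adjusted p = 1.8e-10). Nop16, Nop2 and Nolc1, nucleolar proteins, were higher by 0.68, 0.65 and 0.59 with no overlap. The member lower in DRF was Myc (fell by 0.54), a driver of ribosome production, named after its value was seen. Of 20 cytosolic tRNA synthetase genes 11 were higher and 2 lower (median 0.16), with 6 higher without rescaling or in the fit of the 8 libraries alone. Farsa, the catalytic chain of the phenylalanine enzyme, was at 16.4 to 18.5 against 11.7 to 12.3 (0.49 ± 0.07), and its partner Farsb was 0.35 higher. Yars and Iars were higher by 0.36 and 0.30, the second with overlap. ATF4 targets of amino acid shortage were 3 higher and 2 lower of 17 (17.6% and 11.8%), close to the shares of all genes (18.0% and 13.7%), with a median of 0.10 that turned to -0.01 on the deposited values. The lower count was 0 without DRF replicate 3 or NRF replicate 1 and 3 without DRF replicate 4. Atf4 itself was at 149 to 182 against 98.7 to 127 (0.53 ± 0.09) and Cebpg, its partner, at 39.5 to 41.8 against 27.3 to 30.0. Sesn2, a leucine sensor, was lower (-0.35 ± 0.13), a call lost without DRF replicate 3, without NRF replicate 1 and without the 3 libraries high in urothelium markers, and Psph, a serine synthesis enzyme, was close to the threshold (adjusted p = 0.050).

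Ribosomal protein and respiratory chain genes were higher by small amounts that rested on single libraries. Of 70 ribosomal protein genes 2 had no overlap of the groups, with DRF above, against 21.4% of all genes in either direction. In the test 50 were higher and 0 lower (median 0.26), but 2 were called in the fit of the 8 libraries alone. The count ran from 16 without NRF replicate 1 to 64 without NRF replicate 2, and it was 34 without rescaling. Rpl38 was at 972, 872, 908 and 707 in DRF and 497, 891, 658 and 568 in NRF. NRF replicate 2 lay among the DRF values, and the same held for Rps29 (548 to 889 against 456 to 779) and Rpl39 (212 to 314 against 172 to 254). Rpl7l1, a ribosomal protein-like assembly factor, differed from these, at 87.0 to 110.4 against 73.3 to 80.4 (0.39 ± 0.06). Of 77 oxidative phosphorylation genes 42 were higher and 0 lower (median 0.27), with 0 free of overlap. The limma fit of the 8 libraries alone called 0 of them, 24 at an unadjusted p under 0.05, and 6 with a replicate block. Their count ran from 19 without NRF replicate 4 to 64 without DRF replicate 4. Ndufa5, a subunit of complex I, was at 478, 452, 477 and 368 against 286, 420.5, 263 and 299.8 (0.50 ± 0.11), Atp5k, of the ATP synthase, at 334 to 582 against 304 to 437, Ndufb6 at 339 to 492 against 282 to 401 and Ndufb7 at 68.7 to 96.1 against 56.4 to 88.5. Short transcripts as a class lay in the same direction. The 323 tested genes with up to 1000 bases of annotated exon had a median difference of 0.20 at ZT4 (28.5% higher, 2.48% lower) and of 0.10 and 0.12 at ZT0 and ZT8, whereas genes over 6000 bases had -0.02. The part of transcript length in these lists was not tested.

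Of 33 proteasome genes 10 were free of overlap with DRF above, against 21.4% of all genes in either direction. In the test 28 were higher and 0 lower (median 0.23). The count was 16 without rescaling, 7 in the fit of the 8 libraries alone, 18 without NRF replicate 4 and 10 without the 3 libraries high in urothelium markers. Adrm1, a ubiquitin receptor of the proteasome, was at 73.2, 72.3, 71.2 and 65.4 in DRF and 50.4, 54.9, 48.3 and 49.3 in NRF (0.47 ± 0.06, adjusted p = 1.5e-07). Psmd5, Psmd12 and Psmc2 were 0.33, 0.31 and 0.31 higher with no overlap. Of 24 genes of SR proteins and related splicing factors 16 were higher and 3 lower (median 0.18), with 8 higher without rescaling and 7 in the fit of the 8 libraries alone. Tra2a, a splicing activator, was at 42.1, 36.1, 37.1 and 37.0 against 16.3, 19.5, 21.1 and 23.0 (0.91 ± 0.10, adjusted p = 1.3e-09). Hnrnph1, Srsf10 and Tra2b were 0.57, 0.48 and 0.45 higher with no overlap.

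Few tubule transport genes changed. Of 36 proximal transport genes 6 were lower (16.7%, close to the 13.7% of all genes) and 1 higher (2.78%, against 18.0%). The median of -0.04 ranged from -0.10 to 0.03 as 1 library was left out. Without the 3 libraries high in urothelium markers 2 were lower. After Slc6a19, the largest falls were Slc22a7, an organic anion carrier (123 to 169.5 in DRF, 194 to 433 in NRF), Slc13a1, the sodium sulfate carrier (109 to 144 against 157 to 391), and Slc5a12, a sodium lactate carrier (232 to 342 against 348 to 611). None of these overlapped, but Slc22a7 lost its call in 5 alternatives, Slc5a12 without the 3 libraries high in urothelium markers and Slc13a1 in the fit of the 8 libraries alone. The other 2 called lower, named after their values were seen, were Slc34a3 and Slc7a9. Of 29 distal transport genes 4 were lower (13.8%, against 13.7% of all genes) and 1 higher (median -0.09), with 1 lower in the fit of the 8 libraries alone and 7 without rescaling. Kcnj1, the ROMK potassium channel, was the rise (482 to 573 against 367 to 453), and Trpm6, a magnesium channel, Egf and Wnk4, a kinase acting on the sodium chloride cotransporter, were falls of 0.48, 0.46 and 0.25. Kcnj1 lost its call without rescaling and without the 3 libraries high in urothelium markers, Egf in both fits of the 8 libraries alone, and Wnk4 in those fits and without DRF replicate 3 or 4 or NRF replicate 2 or 3. Slc12a3 itself, the thiazide-sensitive cotransporter, differed by -0.34 and was not called.

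Of 14 water and osmolyte genes 3 were lower (21.4%, against 13.7% of all genes) and 1 higher (7.14%, against 18.0%). Without the 3 libraries high in urothelium markers 1 was lower. Their median was nevertheless 0.215, and it ran from -0.215 to 0.324 without 1 library. The vasopressin receptor Avpr1a was at 16.5 to 19.8 in DRF and 24.8 to 34.7 in NRF (-0.62 ± 0.14). Avpr2, the receptor of the collecting duct, was at 32.7, 35.7, 39.8 and 66.0 against 24.96, 32.7, 25.6 and 35.9, with overlap. Its call was lost without DRF replicate 4 or NRF replicate 1 or 3 and without the 3 libraries high in urothelium markers. The call was also lost in the fit of the 8 libraries alone, without rescaling and on the deposited values. Slc6a6, the taurine carrier, and Gpcpd1 fell by 0.36 and 0.20. Among 10 vitamin D and phosphate genes 2 were lower (20%, against 13.7% of all genes) and 0 higher (median -0.13). Vdr, the vitamin D receptor, was at 166 to 207 against 236 to 304 (-0.44 ± 0.12), and Slc20a2, a phosphate carrier, at 26.5 to 29.1 against 33.9 to 37.1 (-0.35 ± 0.05).

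Glucocorticoid targets as a list were close to the background. Of 16 members 3 were higher (18.8%, against 18.0% of all genes) and 2 lower. The median was -0.05, and 0.18 without the 3 libraries high in urothelium markers. Tsc22d3, which encodes GILZ, was at 46.3, 43.0, 33.2 and 57.7 in DRF and 12.4, 13.0, 14.8 and 22.1 in NRF (2.79-fold, 1.48 ± 0.18, adjusted p = 2.9e-08). Sgk1, a kinase that raises sodium uptake, was at 116, 107, 103 and 224 against 36.0, 32.9, 62.9 and 108, with the highest value of each group in replicate 4. Klf9, in contrast, was at 88.5 to 101 in DRF and 142 to 149 in NRF (-0.66 ± 0.09, adjusted p = 3.8e-07). Hsd11b1, which reactivates corticosterone, was 0.56 higher, a call lost without rescaling, without NRF replicate 4 and without the 3 libraries high in urothelium markers.

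Immediate early genes respond within minutes to stimulation and to handling. Of 20 members 3 were higher (15%, against 18.0% of all genes) and 5 lower (25%, against 13.7%), with a median of -0.15. The lower count was 3 without DRF replicate 1, DRF replicate 2 or NRF replicate 3, 7 without NRF replicate 1 and 0 without the 3 libraries high in urothelium markers, whereas 3 were higher in each of these. Ier3, Klf2 and Klf4 were higher by 0.87, 0.67 and 0.63, and Zfp36 fell by 0.47. Of 21 NRF2 and glutathione genes 8 were higher (38.1%, against 18.0% of all genes) and 0 lower (median 0.15). In the fit of the 8 libraries alone 3 were higher, and 3 without the 3 libraries high in urothelium markers. Hmox1, heme oxygenase, was at 74.4, 135, 63.1 and 95.3 in DRF and at 35.4 to 53.6 in NRF (1.06 ± 0.34), and its call was lost without DRF replicate 2 and without the 3 libraries high in urothelium markers. Osgin1, Srxn1 and Gclm were higher by 0.79, 0.33 and 0.33, and Gclm lost its call in both fits of the 8 libraries alone and without the 3 libraries high in urothelium markers. In the NAD list 1 of 15 was called higher (6.67%, against 18.0% of all genes) and 0 lower. The called gene was Nampt, the rate-limiting salvage enzyme (139 to 165 against 106 to 115). The list median of 0.07 changed sign without rescaling. In the cell cycle list 1 of 20 was higher (5%, against 18.0% of all genes) and 2 lower (10%, against 13.7%), with a median of -0.14. The rise was Wee1, a mitotic kinase that the clock drives, at 16.6 to 27.4 against 9.98 to 13.9 (0.79 ± 0.12), and Cdkn1b, the inhibitor p27, fell by 0.30.

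Interferon-stimulated genes were lower in DRF. Of 20 members 11 showed no overlap, with DRF below, against 21.4% of all genes in either direction. In the test 12 were lower and 0 higher (median -0.56). Irf7, the amplifying factor of the response, was at 15.5, 12.9, 13.5 and 11.0 in DRF and 25.2, 52.8, 47.7 and 45.2 in NRF (2.99-fold lower in DRF, -1.58 ± 0.29, adjusted p = 3.6e-05). Ifit1 was at 7.87 to 13.3 against 12.6 to 26.4, Isg15 at 11.2 to 13.9 against 17.9 to 36.3 and Rtp4 at 9.42 to 13.99 against 15.2 to 22.8. The count ran from 5 without NRF replicate 2 to 13 without NRF replicate 1, and was 3 without the 3 libraries high in urothelium markers. Of the immune cell markers 3 of the 9 tested (Cd74, H2-Aa and Ptprc) were lower in DRF and 6 were not called. Their sum was 1030, 1036, 895 and 561 in DRF and 1229, 1648, 1445 and 1694 in NRF with no overlap and the lowest value in DRF replicate 4. Cd74 and H2-Aa, genes of antigen presentation by MHC class II, made up 81.5% to 91.0% of it, and without them the sum was 104 to 125 in DRF and 119 to 158 in NRF, with overlap. The part of immune cell content in the interferon list was not tested.

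The difference at ZT4 was set against that at ZT0 and ZT8 in the same fit. It differed from the ZT0 difference in 4636 genes (34.7% of those tested), 2450 of them shifted upward and 2186 downward, and from the ZT8 difference in 2022 genes (15.1%), 1198 upward and 824 downward. Of the 4244 genes called at ZT4, 1193 were called in the opposite direction at ZT0 and 185 at ZT8. The comparisons share the ZT4 libraries, so their calls are not independent of each other. At ZT0 the DRF mice were at the end of their fast and the NRF mice at the end of their meal phase. At ZT8 both were 4 h further on than at ZT4.

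The chaperone and sterol lists carried this change of sign. All 3 had medians below 0 at ZT0, -0.40 for heat shock, -0.47 for ER and -0.60 for cholesterol genes, and medians of 0.13, 0.12 and 0.11 at ZT8. The ZT4 difference was called above that at ZT0 in 23 of 26 heat shock, 23 of 25 ER and 21 of 24 cholesterol genes. Over all 13377 genes tested 2450 were so called. Against ZT8 the counts were 13, 13 and 12, and 1198 over all genes. Fatty acid oxidation genes had a median of 0.64 at ZT0, -0.12 at ZT4 and -0.22 at ZT8. Of these 29 genes 24 were called as shifted downward from ZT0 to ZT4, against 2186 of all 13377. Fdps differed by -1.28 at ZT0, 1.04 at ZT4 and 0.41 at ZT8. Hspa5 differed by -1.07, 1.56 and 0.14, and Cirbp by 1.17, -1.27 and -0.73. The ZT4 difference of Pdk4 (-2.02) stood between 1.84 at ZT0 and -3.12 at ZT8. The clock genes were less alike. Per2 differed by -0.53, 2.85 and 0.48, whereas Dbp was higher in DRF by 1.95 at ZT0 and 1.70 at ZT4, with 0.02 at ZT8. The interferon median was -0.98 at ZT0 and -1.33 at ZT8, and of the 20 members 19 were called lower in DRF at ZT0, 12 at ZT4 and 18 at ZT8.

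Over the 14 groups the DRF ZT4 kidneys were among the highest in chaperones. Hspa8 averaged 4354 ± 423 rescaled TPM (SD, n = 4) in DRF at ZT4 and 4788 ± 426 in NRF at ZT16, 4 h into the dark phase, and these 2 means differed by about 1 SD. DRF at ZT16 had a further high mean of 3902 ± 260, and the other 11 groups were at 1453 to 2511. Hspa5 was highest in NRF at ZT16 (1148 ± 131), followed by DRF at ZT4 (915 ± 217) and DRF at ZT16 (820.1 ± 69.6), and neighbours in this order lay about as far apart as their spread. Creld2 had the same order, at 205 ± 18.5, 153 ± 43.2 and 127 ± 15.7, and there the NRF ZT16 mean lay more than 1 SD above the next. Cirbp was lowest in the same 3 groups and in NRF at ZT0, at 16.3 ± 0.451 in NRF at ZT16, 21.3 ± 1.61 in DRF at ZT16, 23.7 ± 2.10 in NRF at ZT0 and 24 ± 1.38 in DRF at ZT4.

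Fdps and Msmo1 had their highest group mean in DRF at ZT4. Fdps averaged 51.4 ± 5.79 there, and the next groups, NRF at ZT0 and ZT24, 36.0 ± 2.41 and 35.5 ± 3.33. Msmo1 averaged 74.6 ± 8.19 there, and the next groups, NRF at ZT24 and ZT0, 50.9 ± 9.03 and 48.1 ± 3.57. Per2 in NRF was at its lowest of all 14 groups at ZT4 (3.74 ± 0.769) and highest at ZT16 (75.2 ± 2.41), and in DRF it rose from 5.56 ± 0.914 at ZT0 to 33.1 ± 6.11 at ZT4 and 64.2 ± 12.2 at ZT12. Igfbp1 and Clec2h were at their highest group mean in NRF at ZT4, 92.6 ± 20.8 and 100.3 ± 39.0, and Slc6a19 in DRF at ZT8 (337 ± 59.0) and NRF at ZT4 (322 ± 97.2), within 1 SD of each other.

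**Figure D5:**
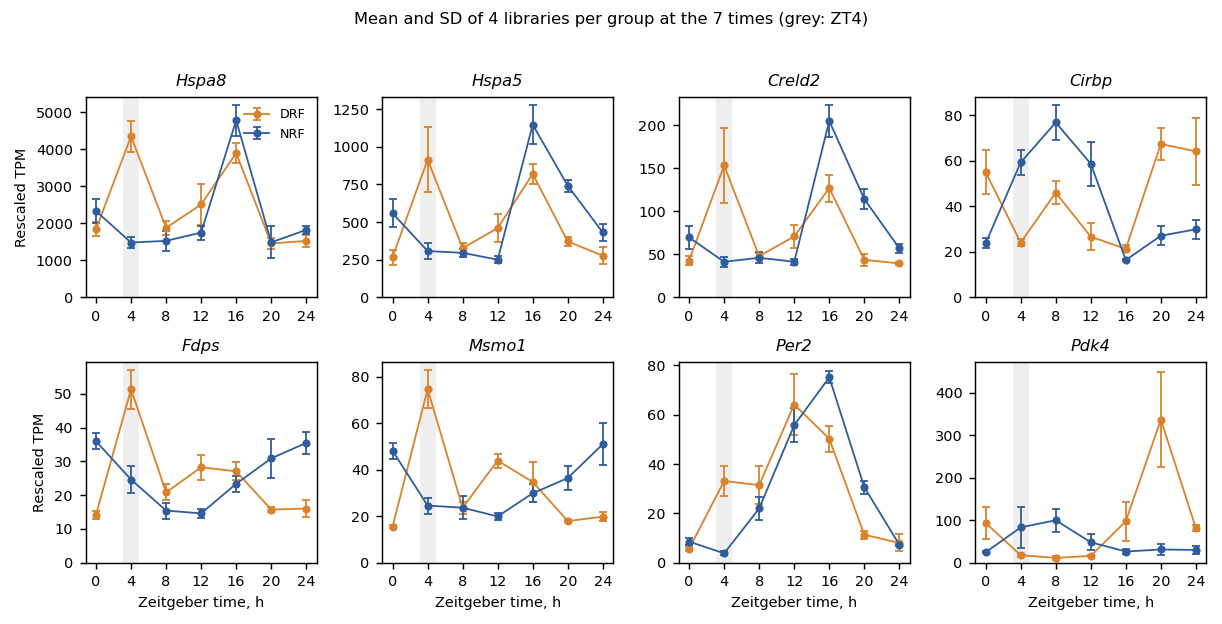
Mean and SD of 4 libraries per group for 8 genes at the 7 times, in rescaled TPM, with DRF and NRF as separate lines and ZT4 shaded. Hspa8 is at 4354 in DRF and 1479 in NRF at ZT4 and at 3902 and 4788 at ZT16, and Msmo1 has its highest mean, 74.6, in DRF at ZT4.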

How the data were processed

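Kidney poly(A) RNA was sequenced in 56 libraries of 14 groups (regimen and ZT), 4 each. The name of 1 NRF ZT24 column gave its group but a replicate number that the labels lack, so it was placed by group only, and it enters the NRF ZT24 means and the shared spread. The authors deposited 1 table named as TPM. Its deposited values are a score and not linear TPM, since they behave as log2(1 + CPM) divided by gene length and put on one total for all libraries. The submitters' processing notes name HISAT2, Bowtie2, RSEM, mm10 and GRCm38.p6, and the role and settings of each are not given in the sources used here. Any pooling of exons or filters by the authors are likewise not given.

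Reads were recovered by undoing the log with GENCODE M21 exon lengths, or with a length found from the spacing of the values, for 16810 of 17027 genes (98.7%). Of the values of whole-read genes, 99.6% came out whole within 0.05 reads. 207 genes with unsettled lengths and 10 with none were left out. TPM were rebuilt and rescaled by the median of ratios.

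limma 3.58.1 (R 4.3.3; lmFit, contrasts.fit, eBayes with trend) was fitted to log2(rescaled TPM + 1) over 14 groups (42 residual degrees of freedom) for genes with a mean of at least 1 rescaled TPM, with calls at a Benjamini-Hochberg adjusted p under 0.05. The contrasts were DRF against NRF at ZT4 and its difference from those at ZT0 and ZT8. Python 3.11.15 with numpy 2.4.6, pandas 2.3.3 and scipy 1.17.1 did the rest. The fit was also run on simulated reads with the same dispersion for every gene and no uneven share of other tissues. That run does not cover the unevenness of these libraries, and no conclusion is drawn from it here.

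Named genes were the 10 largest rises and 10 largest falls called without overlap at a mean of at least 10 rescaled TPM, up to 4 called members per list by size of the difference, and a fixed set. Some genes that this rule names are not reported here. Groups, members and the 28 function and 12 marker lists were chosen with earlier results of these data known. Alternatives covered scaling, unit, pseudocount (0.1), filter (none, 5), the 8 libraries alone, a replicate block, urothelium and medulla covariates, a 1.5-fold minimum and leaving out each library. A further pair, voom on the recovered reads and leaving out the 3 libraries high in urothelium markers, were added after seeing the data.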

Additional observations from a re-analysis of the deposited data

Results flagged for a closer look

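In 21 of 250 groups of 4 libraries examined, the highest or the lowest library lay apart from the other 3 by Dixon's 95% criterion, which chance meets in about 1 of 20 groups. DRF replicate 4 was that library in 9 of the 21. Its values were 65.0 rescaled TPM for Gm38481, 133 for Mid1ip1, 220.2 for Scd2, 23.1 for Depp1, 339 for Ndufb6, 68.7 for Ndufb7, 104 for Psmd12 and 224 for Sgk1, and its summed level of blood markers was 646. The others in DRF were 101 for Klf9 in replicate 3 and 42.1 for Tra2a in replicate 1. In NRF, replicate 1 lay apart for Slc16a1 (91.9), Avpr1a (34.7) and Vdr (304), replicate 2 for Manf (49.98), Cpt1a (324), Atp5k (437) and Wee1 (9.98), replicate 3 for Cyp4a14 (1421) and replicate 4 for Msmo1 (19.4) and Wipi1 (25.9).

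For 42 named genes the DRF minus NRF difference at ZT4 and that at ZT0 were both called with opposite signs. The change between the times, tested as an interaction with limma, was called too. That call follows from choosing genes with called differences of opposite sign, so it adds no further support. The change is the ZT4 difference minus the ZT0 difference on the log2 scale. Sterol and lipid genes shifted upward, with 3.15 for Msmo1, 2.32 for Fdps, 2.27 for Srebf1, 1.58 for Mid1ip1, 2.09 for Scd2 and 0.69 for Elovl5. Chaperone and ER genes shifted upward by 2.44 for Hsph1, 2.33 for Chordc1, 1.55 for Hsp90aa1, 2.65 for Manf, 2.52 for Creld2, 2.63 for Hspa5 and 3.02 for Sdf2l1. Upward shifts were also found for Per2 (3.38), Nat8f6 (3.66), Gm38481 (3.56), Bysl (1.18), Nop2 (0.96), Yars (0.72), Farsb (0.54), Iars (0.54), Psph (0.65), Psmd5 (0.57), Tra2a (1.5), Hnrnph1 (0.83), Srsf10 (0.75), Kcnj1 (0.71) and Avpr2 (1.34). Downward shifts were -4.92 for Angptl4, -3.86 for Pdk4, -3.14 for Gm31371, -2.43 for Cirbp, -1.62 for Cpt1a, -1.23 for Klf9, -0.83 for Sesn2, -1.59 for Slc13a1, -1.02 for Vdr, -0.58 for Slc20a2, -1.81 for Wipi1, -1.66 for Gabarapl1, -0.99 for Ulk1 and -0.86 for Atg13.

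For 7 named genes the difference at ZT4 and that at ZT8 were both called with opposite signs. The call of the change again follows from this choice. The ZT4 difference minus the ZT8 difference was 0.94 for Rbm3, 1.39 for Pck1, 1.25 for Osgin1, 0.63 for Srxn1, 0.78 for Tra2b, 0.73 for Nampt and -0.68 for Slc6a6.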

How the results depend on the processing

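The count of genes called at ZT4 (4244, of which 2408 higher and 1836 lower) was 2020 (1061 and 959) with only the 8 ZT4 libraries in the fit, 2524 (1444 and 1080) without the 3 libraries high in urothelium markers and 536 (234 and 302) with a minimum of 1.5-fold; TPM without rescaling gave 1336 higher. A fit of fewer libraries has fewer degrees of freedom and also another estimate of the spread. The cause of these changes in count was not tested. Leaving out 1 library gave 3448 to 4524 genes at ZT4 (1945 to 2579 higher, 1500 to 1962 lower), 4306 to 4627 that differed from ZT0 (2274 to 2472 and 2032 to 2172) and 1661 to 2189 that differed from ZT8 (977 to 1286 and 636 to 903). With a minimum of 1.5-fold 1624 genes differed from ZT0 (745 and 879) and 562 from ZT8 (267 and 295). The upward count against ZT8 was 627 with TPM without rescaling and 744 on the deposited values taken as TPM, and the downward count was 546 without the 3 libraries. The replicate block gave 4229 genes at ZT4 over the 14 groups and 1900 (1038 and 862) over the 8 libraries. Nothing in the labels says that a replicate number was shared by mice of both groups. Same-number correlations of deviations were over 0.1 in 3 of 4 pairs (range -0.22 to 0.68) and 2 of 8 libraries lay closest to their own number, so the numbers were not treated as pairs, which would have needed all 4 over 0.1. Voom on the recovered reads gave 4276, the urothelium score as a covariate 4660 and the medulla score as a covariate 5024. No call of the 107 called among 113 named genes reversed in any of 20 alternatives. 66 were called in all 20 and 89 in every fit that left out 1 library. In the fit of the 8 libraries alone 24 calls were lost, and 24 without the 3 libraries. With the urothelium score as a covariate 1 call was lost, and with the medulla score 0. With 4 mice per group, a difference that was not called is not shown to be absent.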

Other observations

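Levels of the remaining named genes over the day add to the ZT4 contrast. Nat8f5 was at its highest group mean in DRF at ZT12 (121 ± 16.2 rescaled TPM, SD, n = 4) and at its lowest of the 14 groups in NRF at ZT4 (6.65 ± 4.26). Tsc22d3, the gene of GILZ, was also at its lowest in NRF at ZT4 (15.6 ± 4.46) and at its highest in DRF at ZT12 (111 ± 22.6). Cpt1a had its lowest group mean in DRF at ZT4 (252 ± 16.9) and its highest in NRF at ZT8 (592 ± 46.5). Wipi1 was at 11.8 ± 1.43 in DRF at ZT4, 11.0 ± 0.725 in NRF at ZT16 and 27.8 ± 2.15 in NRF at ZT8. Bysl had its highest mean in DRF at ZT4 (20.9 ± 1.67), with DRF at ZT12 (19.9 ± 2.92) and NRF at ZT16 (19.7 ± 1.27) within the spread. Irf7 was at 78.8 ± 10.6 in NRF at ZT0, 42.7 ± 12.1 at ZT4 and 87.8 ± 30.5 at ZT8, and at 13.2 ± 1.88 in DRF at ZT4.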
